A study of Mus musculus with 12 samples.

Results

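Ccnd1, Ccne1 and Cdkn1b, the genes of cyclin D1, cyclin E1 and the cyclin-dependent kinase inhibitor p27, were chosen by their symbols and are 3 of the 3326 genes with values in the deposited tables. RNA had been sequenced from cultured female germline stem cells (FGSCs) of C57BL/6 mice, germ cells of the ovary that self-renew in culture. The 12 libraries formed 4 groups of 3, labelled usp7 overexpression (OE), its control (OE control), usp7 knockdown (KD) and its control (KD control). Usp7 encodes a deubiquitinase, an enzyme that takes ubiquitin off other proteins. The labels give neither the vectors nor the content of the controls, the age of the mice or the time after the manipulation, and they do not say whether replicates came from separate cultures, so the p-values speak of the spread among libraries alone, which may be technical. Usp7 itself was not analysed here, so the labels have no check from their target.

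A cell that leaves G1 does so on cyclins. Cyclin D1 binds its kinase partners after growth signals and starts the phosphorylation of the retinoblastoma protein, which releases E2F transcription factors. Cyclin E1, itself an E2F target, then drives the cell into S phase with Cdk2, and p27 holds cyclin-Cdk2 complexes inactive until it is tagged with ubiquitin and degraded. The balance of G1 cyclins and p27 is therefore a common readout of the decision to divide, in germline stem cells as elsewhere, although p27 is controlled largely at the protein level, which these data do not measure.

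Ccnd1 lies on the minus strand of chr7:144929931-144939925 (GRCm38, GENCODE M21), and its listed RefSeq transcript matched a GENCODE transcript of 3740 nt with 5 exons. A gene on the other strand, LTO1 in that annotation, shares 1771 bases with it, and reads of the pair cannot be told apart where counting ignored strand; the strand setting is not given in the labels used here. Ccne1 lies on the minus strand of chr7:38097984-38107534, with a matched transcript of 2000 nt and 12 exons. Cdkn1b lies on the plus strand of chr6:134920401-134925513, with a matched transcript of 2393 nt and 3 exons, and its longest coding transcript has 4552 nt. All 3 are protein-coding, and each had 1 row in each table.

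The promoters of Ccne1 and Cdkn1b are shown because these genes moved in opposite directions in both comparisons under the authors' scaling. RefSeq promoter sequence (GRCm38.p6) was matched for 2 of the 3 genes, and Ccnd1 is named only. Both sequences run 5′ to 3′ on the gene's strand, with GC boxes (GGGCGG) and CCAAT boxes (CCAAT), on either strand, in capitals. The first is the Cdkn1b promoter, plus strand, chr6:134920151-134920400, the 250 bases before the annotated start. The second is the Ccne1 promoter, minus strand, chr7:38107535-38107740, which ends where a GENCODE transcript begins, 44 bases before the RefSeq start. The last is a short stretch of Ccne1, minus strand, chr7:38107491-38107507, just before the RefSeq start, with an E2F core (TCCCGC) in capitals.
Cdkn1b promoter: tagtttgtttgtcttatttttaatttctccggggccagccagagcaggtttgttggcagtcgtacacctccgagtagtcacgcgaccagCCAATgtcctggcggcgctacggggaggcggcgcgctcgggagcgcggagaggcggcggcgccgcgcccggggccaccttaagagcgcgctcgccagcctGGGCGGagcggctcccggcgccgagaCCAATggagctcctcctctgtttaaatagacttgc
Ccne1 promoter: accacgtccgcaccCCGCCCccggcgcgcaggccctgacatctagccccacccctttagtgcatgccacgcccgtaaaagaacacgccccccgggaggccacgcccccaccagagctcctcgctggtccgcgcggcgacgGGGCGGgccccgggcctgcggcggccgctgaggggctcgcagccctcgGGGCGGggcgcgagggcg
Ccne1 E2F core near start: tttttaaatgTCCCGCt
In the 250 bases before its start, Ccne1 held the E2F core TCCCGC 2 times, at -7 to -2 and, on the opposite strand, at -47 to -42, where it overlaps a GC box. Of 32851 mouse promoter windows of that length, 16.9% held this core on either strand, and Cdkn1b held none. Ccne1 had 4 GC boxes, of which the one at -49 to -44 crosses the end of the printed run and is left in lower case, and Cdkn1b had 1, a motif found in 32.7% of windows. Cdkn1b had CCAAT boxes at -161 to -157 and at -35 to -31 and Ccne1 none, against 33.8% of windows with this motif. The other E2F core searched (TGGCGC, in 9.76% of windows), the FOXO motif GTAAACA (3.17%), the AP-1 motif TGANTCA (6.75%), the E-box CACGTG (6.02%) and the TATA box TATAAA (12.4%) were found in neither window. These matches describe letters and not bound sites.

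The tables hold normalized counts, reads per transcript divided by 1 size factor per library, for transcripts that the authors selected as changed in the same libraries. There are 648 transcripts listed for overexpression and 3156 for knockdown. Listed normalized counts summed to between 128056 and 155114 per library in the overexpression table. In the knockdown table they summed to between 5.38e6 and 5.52e6 in KD and between 3.01e6 and 3.22e6 in its control. The ribosomal RNA precursor Rn45s took 58.7% to 65.3% of these in KD and 51.5% to 53.6% in its control. The size factors read from the step sizes ranged from 0.722 to 1.54. Those of OE replicate 1 (1.54) and OE control replicate 1 (0.994) are less sure, since reads were not taken as recovered in these libraries. How deeply each library was sequenced is unknown, as only selected transcripts are listed. Of 20 germ cell markers, 2 had rows in the overexpression table and 7 in the knockdown table, too few to check the cell type. The others, among them Ddx4 and Dazl, were not analysed here.

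In Usp7 overexpression both cyclin transcripts were higher than in the control and Cdkn1b was lower, each by about the same factor. Ccnd1 had 3924, 3314 and 5222 normalized counts in OE replicates 1 to 3 and 2320, 2510 and 2518 in the controls. Every OE library lay above every control library, and OE replicate 3 stood highest. The mean rose from 2450 ± 112 to 4153 ± 974 (SD, n = 3), a 1.67-fold difference (log2 fold 0.74 ± 0.18 SE, limma with Benjamini-Hochberg adjustment, adjusted p = 0.00201).

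Ccne1 had 640, 554 and 823 normalized counts in OE replicates 1 to 3 and 406, 432 and 386 in the controls. The groups did not overlap, and the order of the OE libraries was that of Ccnd1. The mean rose from 408 ± 23.3 to 672 ± 137 (SD, n = 3; log2 fold 0.70 ± 0.17 SE, limma, adjusted p = 0.00177). Cdkn1b ran the other way, with 186, 249 and 196 normalized counts in OE and 385, 305 and 326 in the controls. These groups did not overlap either, though the nearest libraries were 55.6 normalized counts apart. Its mean fell from 339 ± 41.8 to 210.2 ± 34.0 (SD, n = 3; log2 fold -0.69 ± 0.17 SE, limma, adjusted p = 0.00216). All 3 genes passed the threshold of 0.05, as did 100% of the 613 transcripts tested (65.3% higher and 34.7% lower), so passing says nothing particular of them. Nor does the lack of overlap, here or in knockdown. It held for each other G1 to S phase gene with a row, and its share over all selected transcripts was not counted. By size of change the 3 genes ranked 558th (Ccnd1), 567th (Ccne1) and 570th (Cdkn1b) of those 613 transcripts.

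In Usp7 knockdown, with the authors' scaling, both cyclins were again higher than in the control and Cdkn1b lower. Ccnd1 had 2645, 2886 and 3032 normalized counts in KD replicates 1 to 3 and 1043, 1052 and 1056 in the controls. No KD library came near the controls, and the nearest lay 1590 normalized counts above them. The mean rose from 1050.3 ± 6.45 to 2854 ± 195 (SD, n = 3), a 2.71-fold difference (log2 fold 1.44 ± 0.09 SE, limma, adjusted p = 6.7e-06).

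Ccne1 had 844, 882 and 1048 normalized counts in KD and 239, 255 and 262 in the controls. Its mean rose 3.64-fold, from 252 ± 11.6 to 925 ± 108 (SD, n = 3; log2 fold 1.87 ± 0.11 SE, limma, adjusted p = 6.6e-06). This placed it 261st of 2902 transcripts by size of change, with Ccnd1 769th and Cdkn1b 2149th. Cdkn1b had 292, 260.3 and 267 normalized counts in KD and 448, 474 and 499.7 in the controls. It fell from 474 ± 26.0 to 273 ± 16.7 (SD, n = 3; log2 fold -0.79 ± 0.10 SE, limma, adjusted p = 1.2e-04), with no overlap between the groups. Of the 2902 transcripts tested, 99.9% passed (49.1% higher and 50.7% lower).

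**Figure D1:**
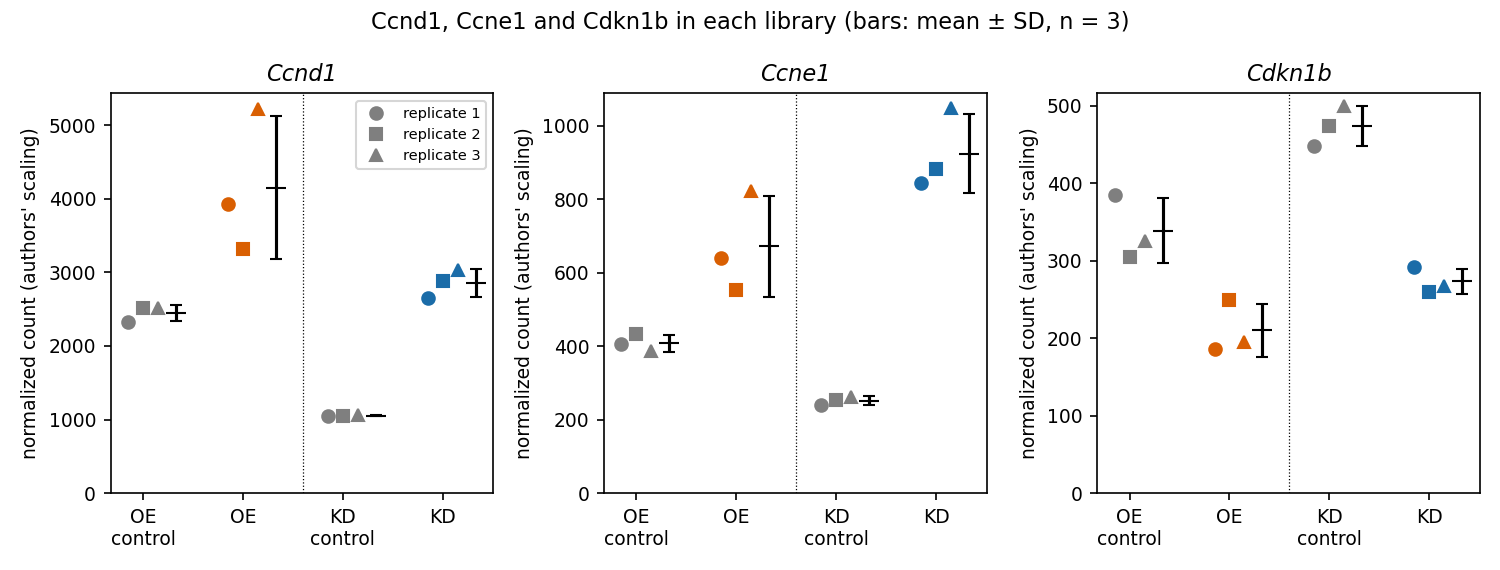
Normalized counts (y axis, linear from 0) of Ccnd1, Ccne1 and Cdkn1b in each library of the 4 groups, with the mean and SD (n = 3) beside the points; the dotted line parts the separately normalized tables. In both tables the cyclins sat above their controls and Cdkn1b below. The groups did not overlap, as for the other listed G1 to S phase genes. The OE libraries spread more widely than the KD libraries.

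The authors' deposited table gave log2 folds of 0.76 ± 0.20 SE for Ccnd1, 0.72 ± 0.20 for Ccne1 and -0.69 ± 0.21 for Cdkn1b in overexpression. For knockdown the authors' deposited table gave 1.44 ± 0.09, 1.87 ± 0.14 and -0.79 ± 0.13 in the same order. The authors' adjusted p-values in that deposited table were 0.00415, 0.00957 and 0.0249 in overexpression, and the largest in knockdown was 2.73e-08, for Cdkn1b. These come from the same libraries and are not a second line of evidence.

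With the authors' scaling, overexpression and knockdown each had both cyclins higher and Cdkn1b lower than separate controls. With TMM and median of ratios the cyclins were not higher in overexpression (log2 folds of -0.02 and -0.49 for Ccnd1, -0.05 and -0.52 for Ccne1). With the authors' scaling, of 436 transcripts past the threshold in both tables, 36 (8.26%) were higher in both, among them Ccnd1 and Ccne1, and 75 (17.2%) were lower in both, among them Cdkn1b. Another 318 rose in overexpression and fell in knockdown, and 7 did the reverse. Whether the size of the response differed between the constructs was not tested, since the tables were normalized separately.

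Spread among libraries was compared with counting error where whole reads could be recovered, in 10 of the 12 libraries. Ccnd1 rested on 862 to 3846 reads per library, Ccne1 on 214 to 1132 and Cdkn1b on 144 to 548. Counting alone gives coefficients of variation of 1.61% to 3.41% for Ccnd1, 2.97% to 6.84% for Ccne1 and 4.27% to 8.33% for Cdkn1b. The observed coefficient of variation of Ccnd1 was 23.5% in OE, far above counting error, 6.84% in KD and 4.58% in the OE controls. In the KD controls it was 0.614%, below what counting alone gives, so the very small SD of that group understates the error of its mean. For Ccne1 it was 20.4% in OE and 11.7% in KD against 5.71% and 4.60% in their controls, and for Cdkn1b 16.2%, 6.10%, 12.4% and 5.49% in the same order.

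OE replicate 3 and KD replicate 3 had the highest normalized counts of both cyclins in their groups and the smallest size factors of their tables, 0.737 and 0.722. The part of scaling in those values was not tested. Without OE replicate 3 the log2 folds in overexpression were 0.56 for Ccnd1, 0.55 for Ccne1 and -0.64 for Cdkn1b, and without OE replicate 2, which lay nearest to the controls, they were 0.89, 0.83 and -0.82. In knockdown, leaving out each library in turn gave 1.39 to 1.49 for Ccnd1, 1.77 to 1.93 for Ccne1 and -0.84 to -0.75 for Cdkn1b.

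Library scaling set the direction of the cyclins in overexpression and not in knockdown. A scaling shifts the log2 fold of every transcript in a table by nearly the same amount. In overexpression that shift, against the authors' scaling, was 0.03 with no scaling, -0.07 with column totals, -0.75 with TMM (trimmed mean of M-values) and -1.22 with median-of-ratios size factors. The last 2 assume that most listed transcripts are unchanged, whereas the table lists selected transcripts of which 65.3% of calls were higher, a share that became 56.5% under TMM and 43.9% under median of ratios.

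Ccnd1 in overexpression was 0.67 ± 0.14 SE (log2 fold) with column totals, -0.02 ± 0.14 with TMM and -0.49 ± 0.14 with median of ratios. Ccne1 was 0.63 ± 0.13, -0.05 ± 0.14 and -0.52 ± 0.14 in the same order. With no scaling Ccnd1 was 0.77 ± 0.37 and Ccne1 0.73 ± 0.36, both just past the threshold (limma, adjusted p = 0.0436 and 0.0484, with 90% of transcripts passing). Under median of ratios both cyclins passed the threshold as lower (limma, adjusted p = 0.00974 and 0.00654), as 43.3% of transcripts did (77.1% passed in either direction), and under TMM neither passed (adjusted p = 0.912 and 0.743, where 84% of transcripts passed). Cdkn1b was lower under each scaling, from -0.66 ± 0.38 with no scaling, where it missed the threshold (limma, adjusted p = 0.0838, with 90% passing, and resting on the less sure size factors of OE replicate 1 and OE control replicate 1), to -1.91 ± 0.19 with median of ratios.

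In knockdown the shift ran from -0.81 with column totals to 0.30 with median of ratios, with -0.47 for column totals leaving out Rn45s, -0.12 for no scaling and -0.07 for TMM. Ccnd1 lay between 0.63 ± 0.08 SE (column totals) and 1.74 ± 0.13 (median of ratios), Ccne1 between 1.06 ± 0.11 and 2.17 ± 0.14, and Cdkn1b between -1.60 ± 0.10 and -0.49 ± 0.14. All 3 kept their direction and passed the threshold under each of these scalings, where 97.2% (median of ratios), 99.9% (TMM), 84.7% (totals leaving out Rn45s), 73.7% (no scaling) and 61.2% (column totals) of transcripts passed. With column totals, which Rn45s dominates, 14.6% of calls were higher, against 49.2% of calls with the authors' scaling, 39.0% leaving out Rn45s and 32.6% with no scaling. So Ccnd1 and Ccne1 were among the 8.93% of transcripts that passed as higher under column totals. With reads recovered in all 6 knockdown libraries (at least 99.97% of values in each were whole within 0.001 of a read), edgeR's quasi-likelihood test with TMM called 2898 transcripts and gave log2 folds of 1.28 for Ccnd1, 1.71 for Ccne1 and -0.95 for Cdkn1b (adjusted p = 3.0e-06, 2.8e-06 and 6.4e-05).

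**Figure D2:**
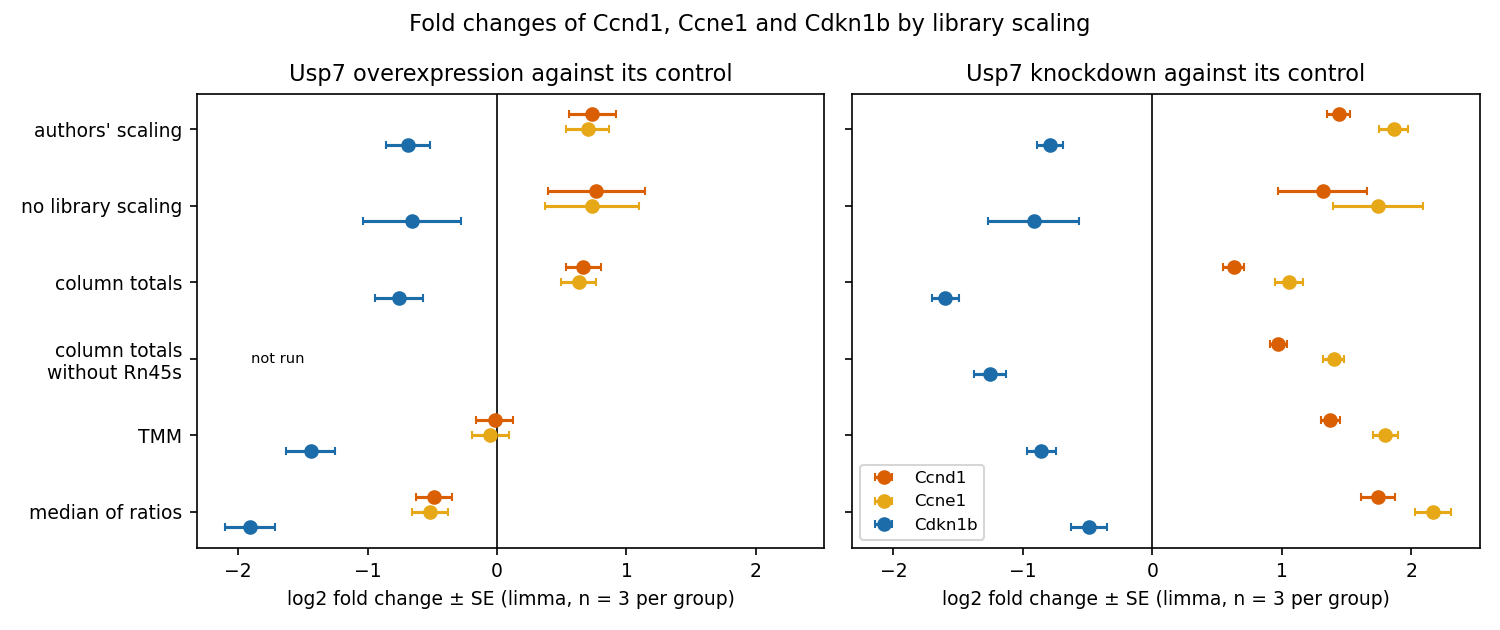
Log2 fold change (x axis, construct minus control, limma, bars ± SE, n = 3 per group) of Ccnd1, Ccne1 and Cdkn1b under each library scaling (y axis), with overexpression on the left and knockdown on the right. In overexpression the cyclins crossed 0 under TMM and median of ratios, while in knockdown they stayed above 0, from 0.63 upwards, and Cdkn1b stayed below 0 in both.

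Ratios between transcripts of 1 library do not depend on how the library was scaled, apart from the 1 added to each value before the log2 ratios were taken. The deposited values give 21.1, 13.3 and 26.7 normalized counts of Ccnd1 per count of Cdkn1b in OE replicates 1 to 3, against 6.02, 8.24 and 7.74 in the controls. The lowest OE library, replicate 2, was above the highest control. The log2 ratio differed by 1.43 (4.28 ± 0.51 in OE and 2.86 ± 0.24 in control, SD, n = 3), a factor of 2.69. For Ccne1 to Cdkn1b the ratios were 3.44, 2.22 and 4.21 in OE and 1.05, 1.42 and 1.18 in control. The log2 ratio differed by 1.39 (1.66 ± 0.47 and 0.27 ± 0.21), again with no overlap. The higher ratio of the cyclins to Cdkn1b in overexpression holds under any scaling by construction, whereas the direction of each cyclin by itself did not hold. The authors selected all 3 genes as changed in these libraries, the cyclins as higher and Cdkn1b as lower. A ratio of a transcript listed as higher to one listed as lower is bound to differ, here and in knockdown. Other such pairs were not counted.

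In knockdown Ccnd1 stood at 9.06, 11.1 and 11.3 normalized counts per count of Cdkn1b, against 2.33, 2.22 and 2.11 in the controls. The log2 ratio differed by 2.23 (3.38 ± 0.18 and 1.15 ± 0.07, SD, n = 3), a factor of 4.69. Ccne1 to Cdkn1b had the widest gap of the 3 pairs. There were 2.89, 3.39 and 3.92 counts of Ccne1 per count of Cdkn1b in KD and 0.535, 0.537 and 0.525 in control, so Ccne1 went from fewer counts than Cdkn1b to more, a factor of 6.31 (log2 difference 2.66).

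The cyclins also moved relative to each other in knockdown. Counts of Ccnd1 per count of Ccne1 were 3.13, 3.27 and 2.89 in KD and 4.36, 4.13 and 4.03 in control, a log2 difference of -0.43 without overlap. In overexpression the same ratio was 6.13, 5.98 and 6.35 in OE and 5.71, 5.81 and 6.53 in control, with overlapping groups and a log2 difference of 0.04 (exact permutation test, two-sided, p = 0.6). Each of the other 5 ratio comparisons had an exact two-sided permutation p of 0.1, the smallest that 3 libraries against 3 allow, and 0.12 after Benjamini-Hochberg adjustment over the 6, so none can pass 0.05 with this test.

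**Figure D3:**
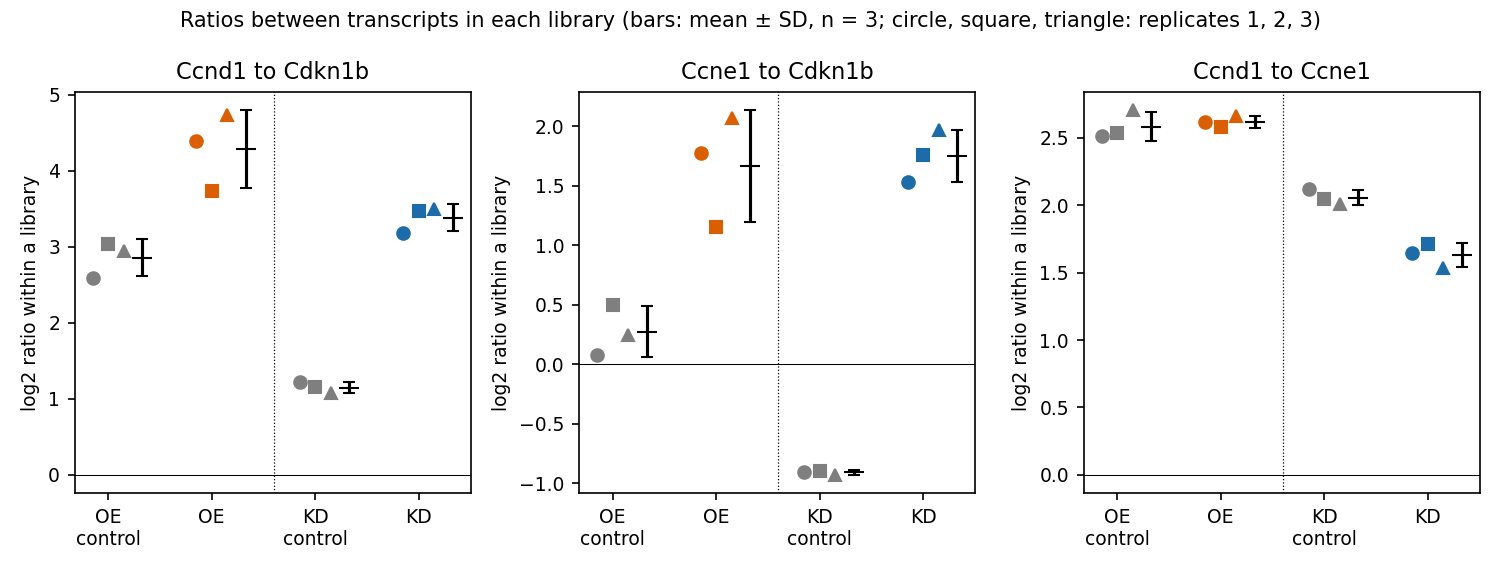
Log2 ratio of normalized counts within a library (y axis) for 3 pairs of transcripts in the 4 groups, with the mean and SD (n = 3) beside the points. Both cyclins stood higher against Cdkn1b in OE and in KD than in any control library of the same table, and the ratio of Ccnd1 to Ccne1 was lower in KD and overlapped in OE.

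Since these ratios are free of scaling, the control groups of both tables can be set side by side. Ccnd1 stood at 6.02 to 8.24 counts per count of Cdkn1b in the OE controls and at 2.11 to 2.33 in the KD controls, and Ccne1 at 1.05 to 1.42 and 0.525 to 0.537. The ranges of the control groups did not overlap, which was not tested, and the control culture and the table cannot be told apart.

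Levels between genes were compared per kilobase of the matched transcript. In the OE controls Ccnd1 had 655 ± 30.0 normalized counts per kb (SD, n = 3), Ccne1 204 ± 11.7 and Cdkn1b 141 ± 17.5. In OE these levels per kb were 1110.4 ± 261, 336 ± 68.6 and 87.9 ± 14.2. In the KD controls they were 281 ± 1.72, 126 ± 5.79 and 198 ± 10.9, and in KD 763 ± 52.2, 462 ± 54.1 and 114 ± 6.97. Ccnd1 was the highest in each group. Cdkn1b lay above Ccne1 in the KD controls and below it in KD, although with its longest transcript the level of Cdkn1b would be 104 per kb in those controls, below Ccne1. In the OE groups Ccne1 was above Cdkn1b with either length.

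By distance between log2 profiles over the 6 libraries of a table, centred on the control mean, the closest profiles were named, where a gene's mean reached 100. In overexpression Ccnd1 and Ccne1 were close to each other: Ccne1 was second to Ccnd1 among 187 genes (distance 0.17 log2 units), after Cchcr1 (0.16), and the genes ahead of Ccnd1 in closeness to Ccne1 were Pdxp (0.12) and Ndufaf3 (0.16). In knockdown the cyclins were farther apart (distance 0.75), and B4galt5, Epop and Bzw2 were closest to Ccnd1 among 1668 genes, with distances of 0.13 to 0.15. Snrpd1, a spliceosome protein gene, Angptl2 and the linker histone gene Hist1h1e were closest to Ccne1 (0.23 to 0.25). The closest to Cdkn1b were Zfp775, Phf20l1 and Pafah1b1 in overexpression (0.41 to 0.43) and Pnrc2, Klf11 and Dcaf6 in knockdown (0.13 to 0.14).

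The other genes of the G1 to S phase pathway were described from a list of 100 genes. Of these, 2 had rows in the overexpression table. Id2, an inhibitor of differentiation that binds helix-loop-helix factors and can bind the retinoblastoma protein, had 522 ± 20.0 normalized counts in OE and 339 ± 17.0 in control (SD, n = 3), a rise of 0.62 ± 0.14 SE on the log2 scale (limma, adjusted p = 0.0010). Like the cyclins, Id2 was lower under median of ratios (-0.60) and missed the threshold under TMM (-0.13, limma, adjusted p = 0.457, where 84% of transcripts passed). Mxi1, a repressor that competes with Myc for Max, fell by 1.04 on the log2 scale (± 0.20 SE) in overexpression and by 0.88 (± 0.15) in knockdown, both with the authors' scaling. Its mean in overexpression was below 100 and it was chosen there after its values were seen.

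In knockdown 29 of the 100 genes had rows and 28 were tested. Of these 28, 19 were higher and 9 lower (limma, authors' scaling, median log2 fold 0.85). Of all tested transcripts, 49.1% were higher, 50.7% lower and 99.9% passed, with a median of -0.61. The authors' selection left out small folds, so that median lies at the edge of a gap around 0. It was 0.58 to 0.60 when any 1 KD control library was left out. The median of all transcripts is therefore no yardstick for the 0.85. Under column totals 3 of the 28 genes passed as higher and 9 as lower, with a median of 0.05, beside 8.93% and 52.3% of all transcripts. With no scaling 12 passed as higher and 9 as lower, beside 693 and 1432 of 2885 transcripts. Of 12 other genes on the list of G1 cyclins and kinases 3 had rows, and all 3 were higher (49.1% of all transcripts were). Under column totals 1 passed as higher, beside 8.93% of all transcripts. Ccnd2, the other D-type cyclin with a row, had 6839 ± 465 normalized counts in KD and 2128 ± 40.4 in control (SD, n = 3), a rise of 1.68 ± 0.09 SE on the log2 scale, beside the phosphatase gene Cdc25a, whose product activates Cdk2 (0.93 ± 0.09, and 0.12 under column totals with adjusted p = 0.290), and the S phase cyclin Ccna2 (0.80 ± 0.10), which was at -0.01 under column totals.

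Of 13 genes of the retinoblastoma and E2F family 6 had rows, and 5 of these 6 were higher, beside 49.1% of all transcripts. Under column totals 1 of 6 passed as higher, beside 8.93% of all transcripts. With no scaling 1 did, beside 693 of 2885 transcripts. E2f3, an activating E2F, rose by 0.86 ± 0.11 SE (log2 fold; 0.06 under column totals, limma, adjusted p = 0.695) and E2f4, an E2F that acts with pocket proteins in quiescent cells, by 0.74 ± 0.11, with -0.07 under column totals. Rb1, the retinoblastoma gene, was lower (-0.68 ± 0.21), from 262 ± 12.8 to 169 ± 51.9 normalized counts (SD, n = 3), and was past the threshold neither under median of ratios (-0.38) nor with DESeq2 on recovered reads (-0.31, where 87.4% of transcripts passed). It was at -0.41 without KD replicate 3. Of 28 S phase genes with E2F sites 7 had rows, and all 7 were higher, beside 49.1% of all transcripts. Among these 7, at means of at least 100, were the ribonucleotide reductase genes Rrm2 (1.25 ± 0.08) and Rrm1 (0.99 ± 0.10), the replication factor Gins2 (0.98 ± 0.13) and the sliding clamp Pcna (0.96 ± 0.10). All 7 were above 0 under each scaling, but 1 of them passed under column totals, beside 8.93% of all transcripts passing as higher.

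The SCF ubiquitin ligase marks p27 for degradation. Its subunits Skp1a (1.01 ± 0.11 SE) and Rbx1 (0.97 ± 0.13) were higher. So were the cofactor Cks1b (0.72 ± 0.11, and -0.09 under column totals) and its relative Cks2 (1.10 ± 0.13). These were 4 of the 5 tested genes of a list of 16, beside 49.1% of all transcripts. The fifth, Usp2, named although its mean was below 100, was lower (-0.89 ± 0.15, limma, adjusted p = 0.00055), as 50.7% of all transcripts were. It was below 0 under each scaling and passed as lower under column totals, as 52.3% of all transcripts did. Under column totals none of the 4 passed (Skp1a 0.20, Rbx1 0.16 and Cks2 0.29, limma, adjusted p = 0.170, 0.322 and 0.0724), where 8.93% of all transcripts passed as higher. The F-box gene Skp2, chosen after its values were seen, had 9.35 to 18.0 normalized counts in KD and 1.73 to 3.67 in control. These were too few to enter the main fit, which asks for at least 10 in 3 libraries. Without that limit 5 of 6 genes of that list, Skp2 among them, passed as higher, beside 1446 of 3156 transcripts. Under median of ratios and with DESeq2 on recovered reads the same 5 of 6 passed as higher, beside 1433 of 2895 and 1446 of 3156 transcripts. The 6 other kinase inhibitor genes on the list, Cdkn1a and Cdkn1c among them, were not analysed here.

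Of 25 upstream transcription regulators 7 had rows in knockdown. All 7 were lower, beside 50.7% of all transcripts, and they were below 0 under each scaling. All 7 passed under column totals (52.3% of all transcripts were lower), and 5 of 7 passed with DESeq2 on recovered reads (1313 of 3156 transcripts passed as lower). Mxd1, a Max partner that opposes Myc, fell by 1.57 (log2, ± 0.12 SE) and Jun, an AP-1 subunit that can activate Ccnd1, by 1.56 (± 0.13), from 914 ± 39.3 to 313 ± 54.0 normalized counts (SD, n = 3). Foxo3, a factor that can activate Cdkn1b, fell by 0.74 (± 0.09), from 925 ± 35.9 to 555 ± 34.6. Jun and Ccnd1 moved in opposite directions and Foxo3 and Cdkn1b in the same one. Whether either factor acted on these genes was not tested.

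**Figure D4:**
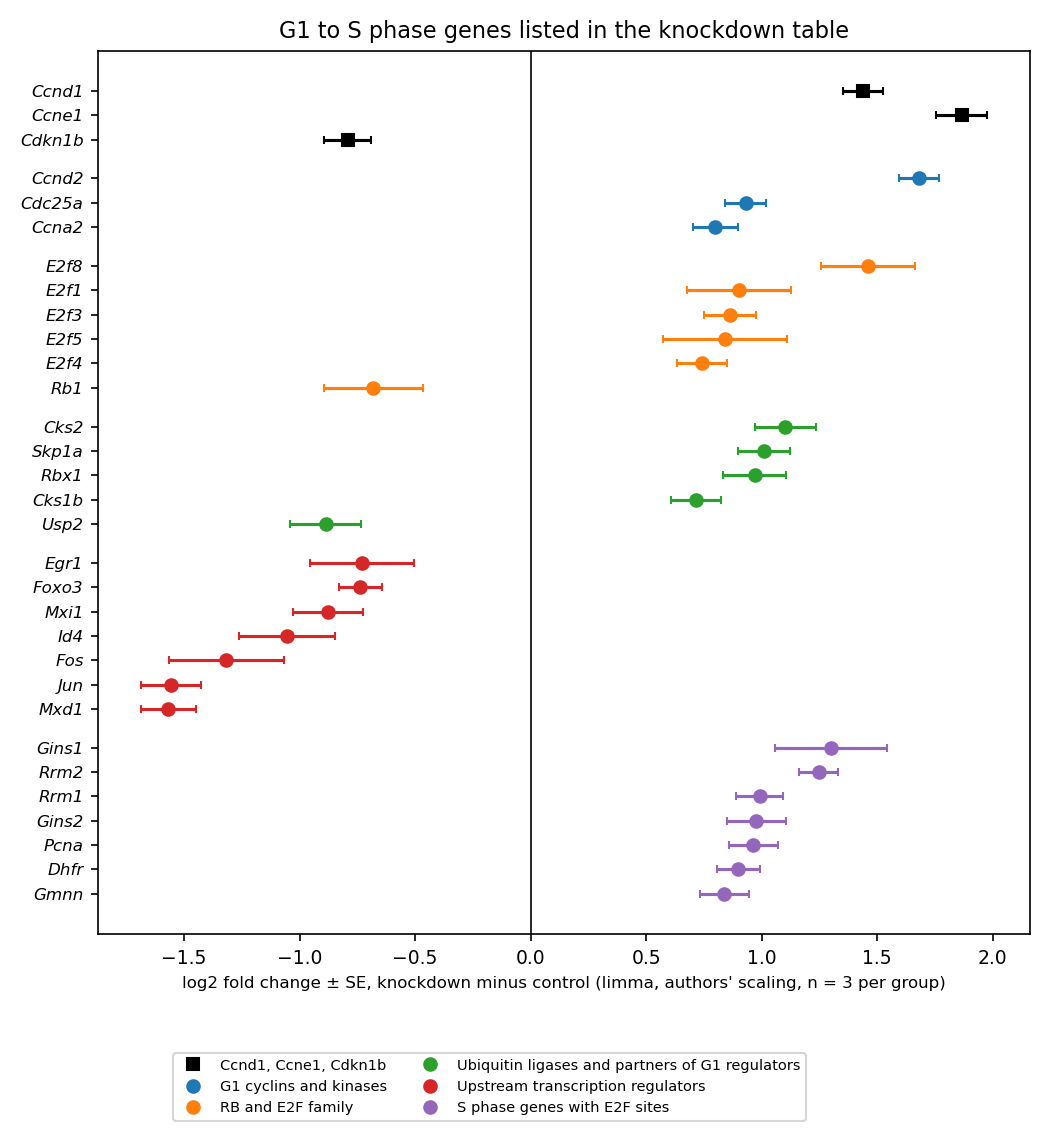
Log2 fold change (x axis, knockdown minus control, limma with the authors' scaling, bars ± SE, n = 3 per group) of Ccnd1, Ccne1, Cdkn1b and 28 other tested genes of the G1 to S phase lists, coloured by list. Cyclins, E2F genes, the other ligase genes and S phase genes lay above 0 and the 7 upstream regulators, Rb1, Usp2 and Cdkn1b below it.

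Markers of other cells were among the selected transcripts too. The knockdown counts below stand beside 49.1% of all tested transcripts passing as higher and 50.7% as lower. Of 14 fibroblast and feeder markers 5 were tested, 2 higher and 3 lower, with a summed level of 8209 to 9853 normalized counts in KD and 5783 to 7179 in control. Of 7 leukocyte markers 2 were tested, Ptprc and Cd68, both lower, summing to 140.3 to 171 in KD and 384 to 432 in control. The 7 germ cell markers with rows, of which 4 were tested and lower and 1 is Foxo3, summed to 880 to 976 in KD and 1791 to 1949 in control. In overexpression the listed germ cell markers Mael and Tex101 were both higher, beside 65.3% of all transcripts. They summed to 249 to 349 in OE and 55.4 to 73.1 in control. S100a4 was the 1 listed fibroblast marker (1618 to 1833 in OE, 962 to 1176 in control). No granulosa marker was among the rows used, and the oocyte marker Nobox had at most 0.779 normalized counts in KD and 1.22 to 33.8 in its controls. In such bulk libraries a change in the share of dividing cells and a change of RNA per cell cannot be told apart, and the part of these other cells in the results on the cyclins and Cdkn1b was not tested.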

How the data were processed

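Per the labels, RNA was extracted with Trizol and made into TruSeq libraries. Bowtie 0.12.2 and the builds mm10 and GRCm38 appear in the submitters' processing notes. Which counter and which test the authors used is not given in the labels or headers used here. Each library's deposited values are normalized counts (signal): reads divided by 1 size factor per library, as their step sizes show. The authors also deposited log2 fold changes and standard errors, a test statistic (score), and raw and adjusted p-values. Only transcripts selected by the authors are listed, so the tests here describe size and error and are not independent calls. Fitted on selected transcripts alone, the limma SEs and adjusted p-values may also be too small. For Cdkn1b in overexpression limma gave an SE of 0.17 and an adjusted p of 0.00216, against 0.21 and 0.0249 in the authors' deposited values. The members, lists and tests were chosen with earlier results of these data known.

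Folds were fitted with limma 3.58.1 (R 4.3.3, variance trend) on log2(normalized count + 1) over all transcripts with at least 10 in 3 libraries and a total of 15, each construct against its own control, with Benjamini-Hochberg adjustment and a threshold of 0.05. Folds on this scale understate changes of low genes. At least 99.97% of values in each column were whole multiples of its step, within 0.001 of a read, which gave the size factors. Reads were taken as recovered in 10 columns, so edgeR 4.0.16 and DESeq2 1.42.0 were used for knockdown only. The fit was tested on simulated data. Chi-square per transcript between replicates was 1.93 to 34.5 in the 8 pairs compared, and no library was treated as a repeat. Named genes were the 3 members, up to 4 genes per list with a mean of at least 100, and the 3 closest profiles per member and table. Promoter sequences came from RefSeq, transcript lengths from GENCODE M21.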

Additional observations from a re-analysis of the deposited data

How the results depend on the processing

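Of 218 values recomputed for the main results, 208 kept their direction, their side of the threshold or their size. Many of them could hardly change. A replicate block or dropping the limit on low values leaves a fold as it was, and the ratios were not rescaled. The count is therefore no measure of how firm the results are. Under median of ratios the log2 folds in overexpression reversed for Ccnd1 (-0.49), Ccne1 (-0.52) and Id2 (-0.60), and under TMM they were -0.017, -0.052 and -0.13. These scalings lower every fold of that table by construction. With no scaling Cdkn1b missed the threshold (-0.66), and 1 of the 2 other pathway genes passed in overexpression there and under TMM. Under column totals 1811 knockdown transcripts passed (2898 with the authors' scaling), 12 of 28 pathway genes did, and Ccna2 (-0.011), E2f4 (-0.070) and Cks1b (-0.095) reversed, while 8 more named knockdown genes missed the threshold. With no scaling 4 did (Ccna2, E2f4, E2f3 and Cks1b, adjusted p = 0.0648, 0.0848, 0.0582 and 0.101), as did Id2 in overexpression (0.66), and Rb1 missed it under median of ratios and DESeq2. Without OE control replicate 1 the Ccnd1 to Ccne1 log2 ratio was -0.00071, and leaving out each library gave it -0.00071 to 0.10.

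Deviations of same-numbered libraries had correlations of -0.11 to 0.05 in overexpression and -0.10 to -0.02 in knockdown. Those of other pairs reached 0.17 (OE replicate 2 with OE control replicate 1) and 0.10 (KD replicate 1 with KD control replicate 3). Over selected transcripts such correlations cannot settle whether the numbers pair libraries, which the labels do not say. With a replicate block all 613 and 2898 of 2902 transcripts passed, as without it, and Ccnd1 kept 0.74 and 1.44, with the SE in overexpression going from 0.18 to 0.22. Without 1 library, the transcripts that passed numbered 522 to 553 in overexpression and 2700 to 2856 in knockdown. The count tests with the authors' size factors were added after seeing the data, and they called 2902 of 2902 (edgeR) and 3156 of 3156 (DESeq2). Count tests were not run in overexpression, where reads were not recovered in 2 columns. Skp2 had too few reads for the main fit, though without the limit on low values, under median of ratios and with DESeq2 it passed as higher. Cdkn1b rested on 144 to 352 recovered reads in overexpression.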
